A study of Mus musculus with 2 samples.

Results

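Hepatokines are proteins that the liver releases into the blood and that act on other tissues. The genes described here are 10: Pm20d1 and the hepatokine genes Fgf21, Ahsg, Fetub, Sepp1 (now named Selenop), Lect2, Fgl1, Rarres2, Enho and Hgfac. They were taken by name, as a list drawn up with earlier results of these data known, and no signal threshold was used to select them. All 10 had at least 1 probe set on the array, among 18194 genes with a value. Their messenger RNA was compared between livers of FLS (fatty liver Shionogi) mice, the study's model of nonalcoholic steatohepatitis (NASH), and livers of DS (dd Shionogi) mice, its model of simple steatosis. Both are inbred strains from separate lines of the same outbred ddN colony, with no engineered allele named in the labels. All mice were 19 weeks old, ate the same standard pellet diet, and had their livers perfused with saline before removal. RNA from 3 mice of each strain was pooled and hybridized to 1 Affymetrix mouse genome array, so there are 2 samples in all and 1 in each group. With 1 pool per strain there is no spread between samples, no p-value can be given for any difference, and liver disease and strain background cannot be told apart. The number of arrays limits the precision of every ratio below.

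Several of these secreted proteins link the fatty liver to insulin sensitivity. Fetuin-A (Ahsg) inhibits the insulin receptor, selenoprotein P (Sepp1) carries selenium to other organs, and FGF21 signals through an FGF receptor together with the co-receptor beta-klotho (Klb) to alter the use of sugar and fat. LECT2 and FGL1 (hepassocin) are made mainly by hepatocytes, as are fetuin-B (Fetub) and HGFAC, a serum protease that activates hepatocyte growth factor. Chemerin (Rarres2) attracts immune cells and acts on fat cells, and adropin (Enho) is a small peptide tied to energy balance. PM20D1 is a secreted enzyme that joins or splits fatty acids and amino acids, known for its release from brown fat cells.

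Values are linear signal intensities, and a fold change or ratio is the FLS signal divided by the DS signal. Where several probe sets read 1 gene, the one with the highest mean of both signals stands for the gene. Every other probe set is given for the 10 members, while other genes are read from that 1 probe set except where more are named. Signals below 200 were taken as too weak for a ratio: a ratio with 1 such signal is a bound computed with 200 in its place, and no ratio is given where both are below 200. Levels of different probe sets cannot be set against each other. Median signals were 120.3 for FLS and 125.2 for DS, and 67.5% and 67.2% of the 45101 probe sets lay below 200. Over 9160 genes with a signal of 200 or more in either pool, log2 ratios had a median of 0.028, and the middle 90% of ratios ran from 0.732 to 1.48. The ratio of Actb, the reference gene of the study's qRT-PCR, was 0.867 on its strongest probe set and 0.869 on the next. Its control probe sets differed along the transcript: the one at the 3′ end had 4256 for FLS and 4865 for DS (0.875), the middle one 1935 and 2882 (0.671), and the one at the 5′ end 2250 and 3298 (0.682). The part of this 5′ to 3′ difference, a sign of RNA quality, in the ratios below was not tested. Dividing by the strongest Actb probe set raised the median log2 ratio of all genes to 0.22.

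The deposited files hold signals and no sequence. The 250 bases before the annotated start, taken from RefSeq on GRCm38.p6, are printed for the 2 higher members that have an entry, Lect2 and Hgfac, and for Fgf21, the member whose signal stayed under the limit. Of the 10 genes, 6 matched an entry: Fgf21, Ahsg, Fetub, Sepp1, Lect2 and Hgfac. Capitals mark matches, on either strand, to 4 motifs that did not overlap in these windows: GTTAAT, the core of the site of the hepatocyte factor HNF1; TGATGCAA, an element of the stress factor ATF4 with C/EBP proteins; CACGTG, the E-box; and TATAAA, the TATA box.
Lect2, chr13:56548539-56548788, - strand: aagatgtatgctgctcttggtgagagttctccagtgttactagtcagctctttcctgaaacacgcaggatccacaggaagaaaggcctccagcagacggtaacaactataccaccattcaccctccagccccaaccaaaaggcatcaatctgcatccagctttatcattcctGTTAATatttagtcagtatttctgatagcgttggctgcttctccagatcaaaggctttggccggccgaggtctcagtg
Hgfac, chr5:35041259-35041508, + strand: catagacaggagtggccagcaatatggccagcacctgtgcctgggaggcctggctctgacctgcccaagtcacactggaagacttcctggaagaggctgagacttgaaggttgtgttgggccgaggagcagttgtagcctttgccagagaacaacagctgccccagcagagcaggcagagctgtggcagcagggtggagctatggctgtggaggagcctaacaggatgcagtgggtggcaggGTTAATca
Fgf21, chr7:45615491-45615740, - strand: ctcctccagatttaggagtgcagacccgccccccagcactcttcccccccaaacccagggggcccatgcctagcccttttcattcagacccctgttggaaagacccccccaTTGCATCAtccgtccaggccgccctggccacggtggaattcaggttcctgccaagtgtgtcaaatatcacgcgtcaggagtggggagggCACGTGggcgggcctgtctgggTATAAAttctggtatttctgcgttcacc
GTTAAT began 78 bases before the start of Lect2 and 8 bases before that of Hgfac. It was in none of the other members' windows, and 6.43% of all 32851 windows of this length hold it. The Fgf21 window held the ATF4 element on the reverse strand (0.791% of all windows), an E-box (6.02%) and a TATA box (12.4%). These matches describe letters and not binding.

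Of the 10 genes, 9 had a signal of at least 200 in at least 1 pool, and for all 9 both signals were above that limit. Pm20d1 alone was at least 2-fold higher in FLS livers, where 1.46% of all measured genes were. No member was at least 2-fold lower, against 1.08% of all measured genes. With a signal limit of 500 in at least 1 pool, 1 member was higher and 0 lower, against 2.29% and 1.77% of genes. At a ratio of 1.5 the members Pm20d1, Fgl1, Hgfac and Enho were higher, against 4.63% of all measured genes, and no member was lower by that much, against 3.05%. Lect2 followed at 1.48, Ahsg, Sepp1 and Fetub lay between 0.930 and 1.04, and Rarres2 had the lowest ratio at 0.797. Log2 ratios of the 9 members had a median of 0.57, beside 0.028 for all measured genes. The members thus ran from a group of 5 with ratios of 1.48 or more to a group of 3 near equality and 1 lower gene. On both sides of the 2-fold limit, the nearest members were Pm20d1 at 2.16 and Fgl1 at 1.96.

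**Figure D1:**
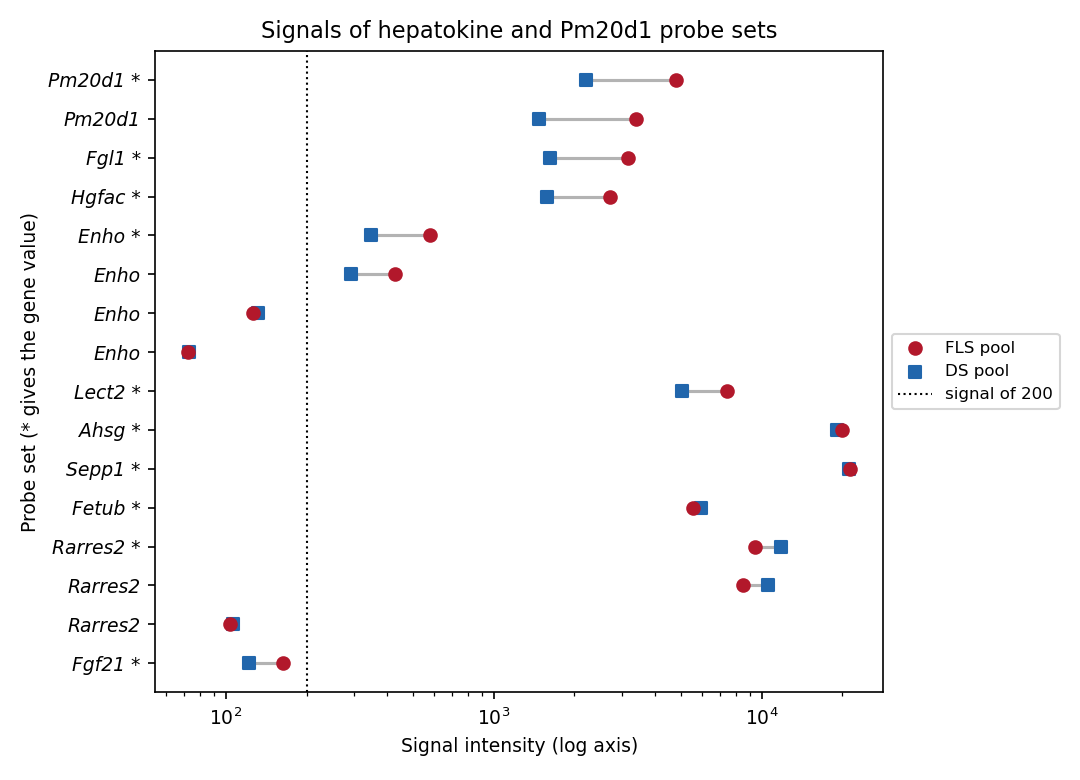
Signal intensity (log axis) for FLS (circles) and DS (squares), each from 1 array, for all 16 probe sets of the 10 genes; an asterisk marks the probe set that gives the gene value and the dotted line a signal of 200. Both Pm20d1 probe sets and those of Fgl1, Hgfac and Lect2 have the FLS circle to the right, Ahsg, Sepp1 and Fetub have overlapping symbols, and 4 probe sets, among them that of Fgf21, have both symbols left of the line.

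Pm20d1 was detected on 2 probe sets. The one with the higher mean read 4783 for FLS and 2214 for DS, a fold change of 2.16. The other read 3390 and 1472, a fold change of 2.30. The FLS signal was thus higher on both, and their log2 ratios, 1.11 and 1.20, differed by less than 0.22, the pooled SD of log2 ratios between probe sets of the same gene over 2790 genes. Of all 9160 measured genes, 1.09% had a higher ratio, and Pm20d1 ranked 101. The probe set with the higher mean belongs to a class (_x_at) whose probes may also match other transcripts, and the other does not. Pm20d1 was among the candidates that the study picked for their ratio on these same arrays, so its place at the top of the list is no independent result. Markers of fat cells, a tissue known for PM20D1, were weak: Adipoq, the adiponectin gene, had 60.7 and 63.4, Lep 59.6 and 59.0, and the brown fat gene Ucp1 108 and 112 for FLS and DS. Of 8 fat cell markers with a value, 3 reached 200, namely Fabp4, Car3 and Lpl, of which hepatocytes express Car3 strongly, and their ratios were 0.933, 0.964 and 2.58. The Car3 probe sets pointed in opposite directions: a second bright one had a ratio of 0.863, while weaker ones had 1606 for FLS against 327 for DS (4.91) and 744 against 166. The part of fat cell RNA in the Pm20d1 difference was not tested.

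Other enzymes that make or split N-acyl amino acids and related amides were mostly lower in FLS livers or close to equal. Of 13 such genes with a value (Ucp1, which N-acyl amino acids can bypass, included), 8 were measured and 2 of these had ratios above 1. A single one passed 2-fold upward, none passed it downward, and the median log2 ratio was -0.14, or 0.065 after division by Actb. The higher one, Acnat2, an acyltransferase gene of the same family as the bile acid enzyme Baat, had 465 in FLS and 103 in DS livers, a ratio of at least 2.33. Aspa (aspartoacylase) had a ratio of 0.708, Acy1 (aminoacylase 1) of 0.754 and the dipeptidase gene Cndp2 of 1.29. Pm20d2, the relative of Pm20d1, had signals of 130 and 175, both under the limit.

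In the RefSeq order of protein-coding genes, Pm20d1 lies on chromosome 1 between Slc26a9 and Slc41a1. Among the 5 neighbours on each side, 6 were measured, with ratios from 0.991 to 2.47. The high one was Ctse, the cathepsin E gene, at 1371 in FLS and 555 in DS livers. A second Ctse probe set had 297 and 1197, a ratio of 0.248, so its probe sets pointed in opposite directions. Nucks1 had a ratio of 1.01 on its strongest of 6 probe sets, Rab7b of 0.991, Elk4 of 1.23 (0.855 on a second probe set above the limit), Slc45a3 of 1.12 and Rab29 of 1.28, while Slc41a1, next to Pm20d1, had signals of 104.1 and 99.6, and Avpr1b had 113 and 130. The genes with the ratios nearest to that of Pm20d1, among 4405 others above 500 in both pools, were Slc3a1 (2.161), Sptan1 (2.154) and Clpx (2.168). With 2 samples, likeness here means only a similar ratio.

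On its single probe set Fgl1 read 3174 for FLS and 1621 for DS, a fold change of 1.96. The FLS value was higher by 1553, and 1.57% of all measured genes had a higher ratio. FGL1 is a fibrinogen-like protein that stimulates hepatocyte growth and binds LAG3 on T cells. The classical fibrinogen chains, which are also hepatocyte products, were nearly equal: Fga had a ratio of 1.04, Fgg of 1.05 and Fgb of 1.07. Of 7 measured genes of the fibrinogen-domain family, none reached a 2-fold difference in either direction. Fcna (ficolin A), a macrophage product, had 542 and 962, a ratio of 0.563, and Angptl4, an inhibitor of lipoprotein lipase, a ratio of 1.13. Angptl6 had a ratio of 1.08, and Angptl7 had 167 and 222, a ratio of at most 0.903. Lag3 had 116 in FLS and 124 in DS livers, under the limit in both.

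Hgfac, also with a single probe set, read 2707 for FLS and 1574 for DS, which gave a fold change of 1.72. HGFAC cleaves the inactive precursor of hepatocyte growth factor. The growth factor gene Hgf itself stayed under the limit, at 120.0 and 105.5, while its receptor gene Met had 1938 and 2093, a ratio of 0.926. Of 7 measured genes of growth factor activation, none differed 2-fold. F12 (coagulation factor XII), a protease related to HGFAC, had a ratio of 1.34, Spint2, an inhibitor of HGFAC, of 1.17, and Plg (plasminogen) of 1.10. Hepsin (Hpn), a membrane protease that can also activate the growth factor, had a ratio of 1.06.

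The single probe set of Lect2 read 7446 for FLS and 5030 for DS. Its fold change was 1.48, and 5.14% of all measured genes had a higher ratio. LECT2 attracts neutrophils and binds receptors that include MET and TIE1. Tie1 had 168 and 190 and was under the limit, as were Cd209a, the gene of a further LECT2 receptor, and its relative Cd209f. Tek, the gene of the related endothelial receptor TIE2, had 407 in FLS and 222 in DS livers, a ratio of 1.83. Neutrophil markers were weak: 3 of 9 with a value reached 200 in either pool, with ratios from 0.938 to 1.05. S100a8 had 81.5 in FLS and 110.2 in DS livers, both under the limit. By immunostaining of FLS livers, the study found more neutrophil-marker reactions than macrophage or lymphocyte ones. Stained cells in clusters and RNA of whole liver are unlike measures.

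Enho had 4 probe sets. The strongest read 579.9 for FLS and 346.6 for DS, a fold change of 1.67, and the next read 429 and 293, a fold change of 1.46. The remaining 2 had 126 and 132, and 72.4 and 72.7, with no ratio. The FLS signal was thus higher on both probe sets above the limit. They are annotated to the same source sequence, so they are not separate support. The weaker of them is of a class (_s_at) that can match several transcripts. Taking the median over all 4 Enho probe sets, with signals below 200 set to 200, gave 1.21. Its measured neighbours on chromosome 4 had ratios of 1.21 to 1.60 over 4 genes, among them Rpp25l at 1.60 and Dctn3 at 1.55. Of the receptor candidates of adropin, Gpr19 had 169 and 165 and Cntn6 58.9 and 63.4, all under the limit. Rora, a nuclear receptor of the clock, had a ratio of 1.08 on the strongest of its 9 probe sets. Others above the limit in both pools ran from 0.791 to 1.04, and a further one had 126 for FLS against 456.5 for DS, so the direction of Rora depends on the probe set. Nr1h3 (LXR alpha) had a ratio of 0.992, and Nr1h2 was not analysed here.

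**Figure D2:**
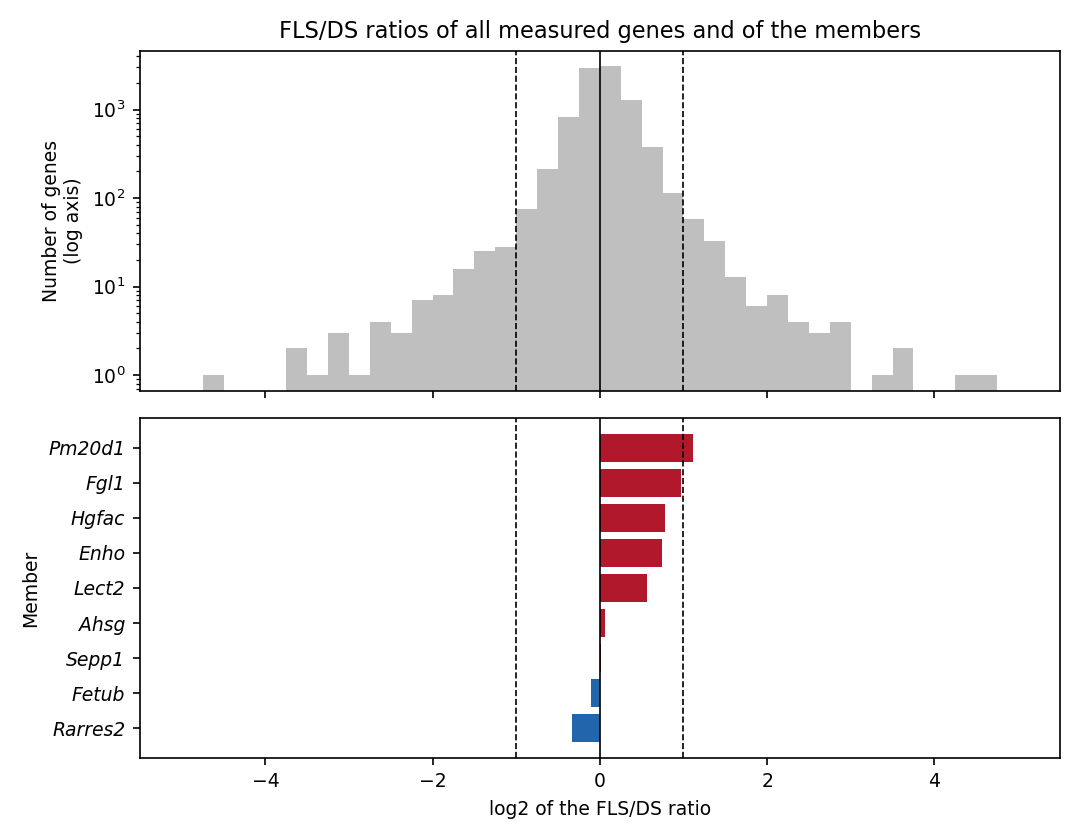
Upper panel, number of genes (log axis) by the log2 of the FLS/DS ratio in bins of 0.25 for 9160 measured genes; lower panel, the log2 ratio of each of the 9 measured members, 1 pool per strain. The solid line marks equal signals and the dashed lines a 2-fold difference, which Pm20d1 passes at 1.11 and Fgl1 nearly reaches at 0.97, while Ahsg, Sepp1 and Fetub lie within 0.11 of 0.

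Ahsg, Fetub and Sepp1 were nearly equal in the pools. Ahsg had 19964 in FLS and 19142 in DS livers, a ratio of 1.04. Fetub had 5516 and 5933, a ratio of 0.930 that became 1.07 after division by Actb. Sepp1 had 21404 and 21190, a ratio of 1.01. These log2 ratios, 0.061, -0.11 and 0.014, were all smaller than the spread of 0.22 between probe sets of 1 gene. That spread does not measure the error between pools, which 1 pool per strain cannot give. The signals of Ahsg and Sepp1 were among the high ones of the array, whose highest signals were 32018 and 30942, and how far such bright probe sets still follow the RNA amount was not tested.

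Ahsg and Fetub are neighbours on chromosome 16, next to Hrg and the kininogen genes, which belong to the same cystatin superfamily. Hrg (histidine-rich glycoprotein) had a ratio of 1.14 and Kng1 (kininogen 1) of 1.20, so the gene values of this cluster ran from 0.930 to 1.20. A second Kng1 probe set had a ratio of 1.54. Of 5 measured cystatins and fetuin partners, none differed 2-fold, and all 5 ratios were above 1. Cst3 (cystatin C) had 1.44, Cstb (cystatin B) 1.30 and the insulin receptor gene Insr 1.11. Mep1a, Mep1b and Astl, whose products are proteases of the family that fetuin-B inhibits, were under the limit in both pools.

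Sepp1 belongs to a wider group of selenium genes, of which 23 of 27 with a value were measured. None was at least 2-fold higher, 1 was at least 2-fold lower, and the median log2 ratio was 0.014. The lower gene was Dio1, the deiodinase that activates thyroid hormone, at 361 in FLS and 3402 in DS livers, a ratio of 0.106. Apart from Dio1 the ratios stayed between 0.789, for Msrb1 (a methionine sulfoxide reductase), and 1.42, for Selenoi (a phospholipid synthesis enzyme). Gpx1, an abundant selenium-dependent peroxidase, had 18622 and 18788, a ratio of 0.991. Sephs2, which makes the selenium donor for selenoprotein synthesis, had 1.03, with 0.977 and 0.887 on weaker probe sets. Its relative Sephs1 had 1.32, with 1.26 and 0.878 on its other probe sets above the limit. Scly, which recycles selenium, had 1.10. The Sepp1 receptors Lrp8 and Lrp2, known from other organs (Lrp8 from brain and testis, Lrp2 from kidney), were under the limit in both pools.

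Rarres2 was the member with the lowest ratio. Its strongest probe set had 9440 in FLS and 11843 in DS livers, a ratio of 0.797, and a second had 8489 and 10543, a ratio of 0.805. The remaining one had 104 and 106 and gave no ratio. Both measured probe sets were thus lower in FLS livers, with log2 ratios of -0.33 and -0.31, and 91.0% of all measured genes had a higher ratio than Rarres2. Both are of a class (_s_at) that can match several transcripts, and without that class Rarres2 has no ratio. The chemerin receptor genes Cmklr1 (165 and 156) and Ccrl2 (177 and 174) were under the limit, and Cmklr2 was not analysed here. Among macrophage markers, which include cells that carry CMKLR1, 11 of 11 were measured, with ratios from 0.554 to 1.18 and a median log2 ratio of -0.26.

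Fgf21 read 164 for FLS and 122 for DS on its single probe set. Both lay under the limit of 200, and the FLS signal was higher by 41.7. No ratio is given, and a difference was not detectable at this signal. Its co-receptor gene Klb had 456 and 360, a ratio of 1.27, but a second Klb probe set was under the limit. Fgfr4, the main FGF receptor of hepatocytes, had 769 and 485, a ratio of 1.59, while 2 further Fgfr4 probe sets above the limit had 1.07 and 0.907. Of 12 measured receptors and regulators of this axis, 1 passed 2-fold upward and none downward, with a median log2 ratio of 0.24. The higher one was Nr1d1 (REV-ERB alpha), a clock repressor, at 612 in FLS and 292 in DS livers. Fgf1, the fibroblast growth factor 1 gene, had a ratio of 0.631, with 0.597 and 0.734 on its other probe sets. Of the remaining receptors, Fgfr2 had a ratio of 1.32 and Fgfr3 read 688 for FLS and 549 for DS, while Fgfr1 had 123 and 116, under the limit. Among the other regulators listed, Ppara had 0.924 (0.951 and 1.03 on other probe sets) and Atf4 1.16 (1.26 on a second probe set above the limit). Mlxipl (ChREBP) had 0.888, Creb3l3 1.11 and Nr1h4 1.20. Ppargc1a had 219 in FLS and 112 in DS livers, a ratio of at least 1.09.

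**Figure D3:**
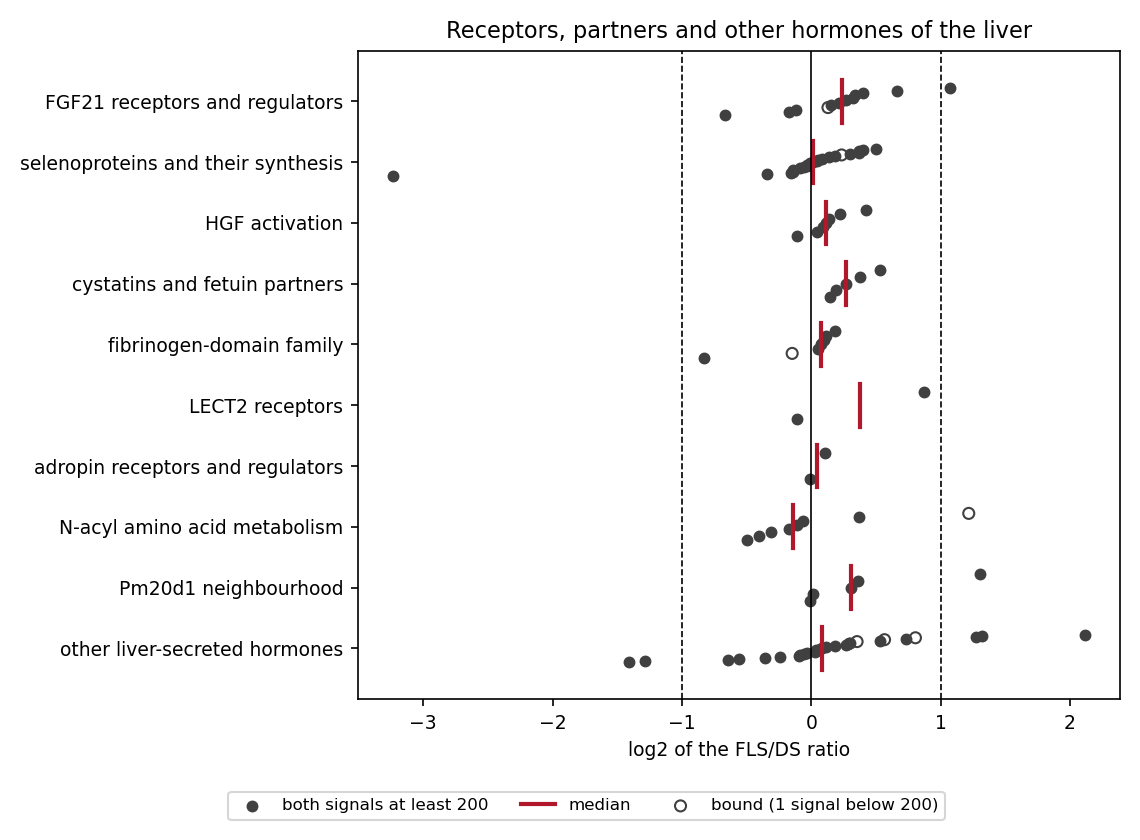
The log2 of the FLS/DS ratio of each measured gene (points) in 10 groups of receptors, partners, neighbours and other hormones, 1 pool per strain; open points are bounds, red bars are medians and dashed lines mark a 2-fold difference. Most points lie between the dashed lines, Dio1 stands far to the left at -3.24 and Lcn2 farthest to the right at 2.12.

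Other hormones and hormone-like proteins of the liver were set beside the members. The median log2 ratio of 29 measured genes was 0.081, and the list was drawn up with earlier results of these data known. Of the 29 genes, 24 lay between the 2-fold limits. At least 2-fold higher were 3 and at least 2-fold lower 2, against 1.46% and 1.08% of all measured genes. The higher ones were Lcn2 (lipocalin-2) at 4.34, Igfbp2 at 2.49 and Angptl8, an inhibitor of lipoprotein lipase, at 2.41, all 3 of which the study had also picked for their ratio on these arrays. The lower ones were Serpina12 (vaspin) at 0.376 and Igfbp1, a binding protein that falls with insulin, at 0.409. With signals below 200 left as deposited, 5 of the 29 were higher, against 1.89% of all measured genes. The added ones were Gpnmb and Serpinb1a. Hamp (hepcidin), the hormone of iron balance, had 15898 and 9555, a ratio of 1.66. Several classical liver products were nearly equal, among them Rbp4 at 0.979 and Ttr at 1.02. Igf1 had 0.941 on its strongest probe set and 1.01 to 1.17 on the other 3. Gdf15, Tsku, Epo and Thpo were not analysed here.

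The labelled tissue was checked against markers. All 16 hepatocyte markers with a value were measured, with ratios from 0.867 to 1.35 and a median log2 ratio of 0.050. Their summed signal was 302493 in FLS and 294638 in DS livers. Such sums follow the brightest probe sets of a list and are given only to compare the same list between pools. They were 15387 and 11323 for 11 stellate cell markers, 6775 and 8438 for 11 macrophage markers, 7432 and 6886 for 10 sinusoidal endothelial markers, and 13869 and 7672 for 7 cholangiocyte markers. The largest part of the stellate sum was Dcn (decorin, 1.37). Of 9 measured stellate markers, 7 had ratios above 1, with a range from 0.880 to 2.78 and a median log2 ratio of 0.46. At least 2-fold higher were 2, the collagen genes Col3a1 at 2.78 and Col1a2 at 2.00, against 1.46% of all measured genes. Lrat at 0.880 and Acta2 at 0.919 were lower, and Des and Col1a1 were under the limit in both pools. Most of the cholangiocyte sum was Krt8 (1.71) and Krt18 (1.98), which hepatocytes also express. Of the other cholangiocyte markers, Sox9 had 365 and 140 (at least 1.83-fold higher), Epcam 182 and 211, and Krt7, Krt19 and Cftr were under the limit in both pools. Neutrophil markers summed to 1296 and 1433, and 10 markers of T and NK cells to 1220 and 1241. Summed signals were 3008 and 3258 for 5 pancreas markers, most of it from Cela1, and 756.3 and 807.0 for 7 kidney markers, none of which reached 200. The part of these cells in the members' ratios was not tested, and in bulk tissue fewer cells of a type and less RNA per cell cannot be told apart.

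**Figure D4:**
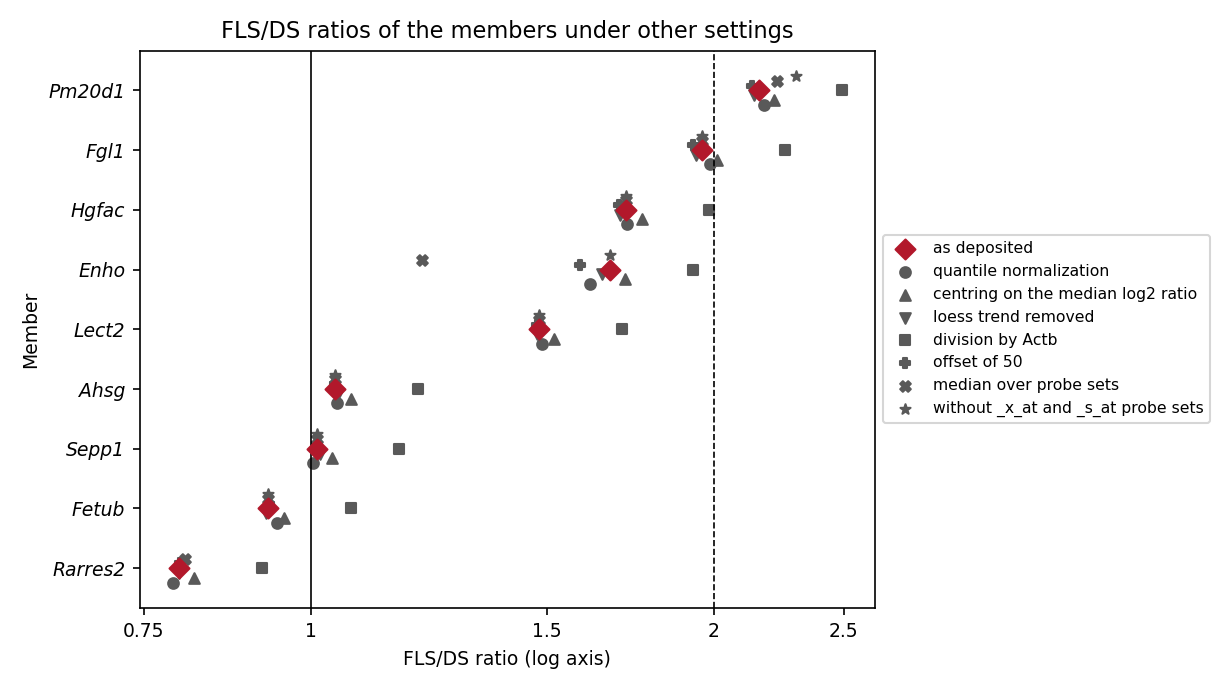
FLS/DS ratio (log axis) of each measured member as deposited (diamonds) and under 7 other settings of scaling, offset and probe set choice (grey symbols), 1 pool per strain; the solid line marks equal signals and the dashed line a ratio of 2. Pm20d1 stays to the right of the dashed line at 2.13 to 2.49, Fgl1 lies on either side of it at 1.93 to 2.26, and Rarres2 stays left of the solid line at 0.789 to 0.919.

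The ratio of Pm20d1 was above 2 under each of 4 other scalings of the arrays, from 2.14 to 2.49. Over the same scalings Fgl1 ran from 1.94 to 2.26, Hgfac from 1.70 to 1.98, Enho from 1.61 to 1.93 and Lect2 from 1.47 to 1.71. Rarres2 stayed below 1, from 0.789 to 0.919. Ahsg (1.05 to 1.20) and Sepp1 (1.00 to 1.16) stayed at or above 1, and Fetub (0.926 to 1.07) was on both sides of it.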

How the data were processed

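Liver RNA of 3 FLS and 3 DS mice was pooled by strain and measured on 2 Affymetrix mouse genome arrays. The deposited signal intensities are linear values per probe set, which the authors computed with a model-based expression index from perfect-match probes (MBEI, PM-only) and normalized. The submitters' processing notes name affy, and the scaling between arrays and the genome build are not given in the sources used here. GEO's platform annotation gave 1 symbol to 34958 of 45101 probe sets, several to 932 and none to 9211. Symbols were updated by Entrez number for 34754. Probe sets with 1 symbol gave 18194 genes, each read from its probe set of highest mean over both arrays. Counts use a signal of at least 200 in at least 1 pool and a ratio of 2, after signals below 200 were set to 200. No test was possible with 1 sample per strain.

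The members and the 21 gene lists (231 of 261 entries had a value) were chosen with earlier results of these data known. Named genes were all members, the receptors and partners Klb, Fgfr4, Cmklr1, Cmklr2, Ccrl2, Lrp8, Lrp2, Met, Hgf, Tie1, Lag3, Gpr19 and Insr, up to 4 genes of each pathway list whose log2 ratio lay farthest from 0, genes of lists of 8 or fewer (not every one is reported here), the 3 nearest to Pm20d1 in ratio, and Actb. Angptl8, Gpnmb, Serpinb1a, Hamp, Rbp4, Igf1, Ttr, Fgfr1, Fgfr3 and Ppargc1a were picked after values were seen. So were the cell markers named singly, the regulators and controls with small differences, the motifs and the neighbours. Alternatives were quantile normalization, median centring, loess (fraction 0.4), division by Actb, an offset of 50, the median over probe sets, omission of _x_at and _s_at probe sets, signal limits of 500, none or 200 in both pools, and ratios of 1.5 and 3. The calculations were tested on simulated data. Calculations ran in Python 3.11.15 with statsmodels 0.14.6, pandas 2.3.3 and numpy 2.4.6, and figures were drawn with matplotlib 3.10.9.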

Additional observations from a re-analysis of the deposited data

How the results depend on the processing

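No paired analysis was possible because each strain has 1 pooled sample, and no replicate could be left out. Of 62 member ratios recomputed under another setting, 1 moved further in log2 than the SD of 0.22 between probe sets of the same gene. It was Enho, at 1.21 with the median over its probe sets, of which 2 are under the limit and enter as a ratio of 1. The same setting brought the members' median log2 ratio to 0.28. Many of the 62 ratios could not move. Division by Actb and median centring shift every member alike, by less than 0.22 in log2. Settings of probe set choice leave a member with a single probe set unchanged. The count of moved ratios is thus no measure of how firm the ratios are. The number of members at least 2-fold higher was 2 after centring on the median and after division by Actb, which carry Fgl1 past the limit. Of all measured genes, 1.60% and 2.27% were higher under these settings. At a ratio of 1.5, 4 members were higher, against 4.63% of all measured genes. At a ratio of 3, 0 members were, against 0.426%. Fetub went from 0.930 to 1.07 after division by Actb. No member was lower by the fold used under any setting. Over all genes of the pathway lists together, 6 were at least 2-fold higher and 3 lower, against 10 and 6 at a ratio of 1.5 and 1 and 1 at a ratio of 3. The shares of all measured genes higher and lower were 1.46% and 1.08% at a ratio of 2. They were 4.63% and 3.05% at 1.5, and 0.426% and 0.415% at 3. The lists were chosen with earlier results of these data known, so their counts are no independent result. For single lists, 23 of 416 values moved. Nr1d1 fell short of 2-fold with the offset, Acnat2 dropped out with a limit of 500 or of 200 in both pools, and Ctse with the median over its probe sets. Over all genes, 134 were higher and 99 lower (57.5% of calls higher); division by Actb gave 219 and 80 (73.2%), the median over probe sets 88 and 81, a ratio of 1.5 gave 424 and 279, and a ratio of 3 gave 39 and 38. With signals below 200 left as deposited, a setting chosen after seeing the data, 5 other hepatokines in place of 3 were higher. Of all measured genes, 1.89% were higher under that setting. Signals near 200 limit what can be said of Fgf21, Enho and the receptors.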
